A study of Mus musculus with 12 samples.

Results

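Rgs5 and 9 other genes known as markers of pericytes and other mural cells (Abcc9, Kcnj8, Pdgfrb, Cspg4, Notch3, Anpep, Des, Higd1b and Acta2) were followed in dorsal root ganglia of YAC Q84 and wild-type (WT) mice. The 10 genes were chosen by name as a mural cell list, out of 35583 genes with a symbol, and the counts of each gene's transcripts were added up. All 10 passed the filter on low counts in both fits used below. Rgs5 did not move with the rest. In the 10 libraries whose Atxn3 transcript matched their label it fell by 61.7% in Q84. There none of the other 9 genes was called lower and 1 of them, Abcc9, was called higher (adjusted p under 0.05). Of all genes, 4.93% were called lower and 1.52% higher. The Abcc9 call was made in 16 of 21 alternative fits of these libraries. In the 12 libraries as labelled neither gene was called (edgeR, adjusted p = 0.27 for Rgs5 and 0.206 for Abcc9).

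Mural cells wrap the outside of blood vessels: pericytes lie on capillaries, and smooth muscle cells surround arterioles and arteries. Endothelial cells recruit pericytes with PDGF-B, which acts on the receptor Pdgfrb, and Notch3 receives signals from ligands on neighbouring vessel cells and maintains mural cell identity. Capillaries of sensory ganglia are more permeable than those of the brain, and pericytes cover them too.

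The WT group held 3 male and 3 female libraries, and the Q84 group 1 male and 5 female libraries, all from mice 24 weeks old. In the YAC Q84 strain a yeast artificial chromosome brings in human ATXN3 with an expanded CAG repeat, as a model of spinocerebellar ataxia type 3 (SCA3), and their own mouse Atxn3 is still read. Nothing in the labels says that each library is another animal, so the p-values measure only the spread between these libraries. Bulk RNA was sequenced. In it fewer mural cells, less RNA per mural cell and less RNA of the same gene from other cells cannot be told apart.

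Total estimated counts per library lay between 66490481 and 86891563. The tissue label was checked with 7 sensory neuron markers, of which Tubb3 lay at 1174 to 2063 TPM (abundance scaled to transcript length and library) and the nociceptor sodium channel Scn10a at 26.5 to 111 TPM over the 12 libraries. The genotype label was checked with the 1000-base Atxn3 transcript ENSMUST00000161011.8. The library labelled WT female 2 held 34.0 TPM of it, against 0.110 ± 0.151 TPM (SD, n = 5) in the others with that label. Q84 female 5 by label had only 0.0612 TPM, against 71.4 ± 6.14 TPM (SD, n = 5) in the rest labelled Q84. These 2 libraries are shown apart: each result is given for the 12 libraries as labelled and for the 10 left without them, and neither was moved to the other group. They were left out for their Atxn3 transcript, not for their mural genes.

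Promoter sequences are shown for the 3 members whose groups separated or whose test passed, Rgs5 and the adjacent channel genes Abcc9 and Kcnj8. Each is the 250 bases before the start site in RefSeq (GRCm38.p6), 5′ to 3′ on the gene's own strand, at chr1:169655251-169655500 (plus strand) for Rgs5, chr6:142702275-142702524 (minus strand) for Abcc9 and chr6:142571615-142571864 (minus strand) for Kcnj8. Capitals mark TGGGAA, the core of the motif of RBPJ, the DNA-binding partner of Notch receptors.
Rgs5: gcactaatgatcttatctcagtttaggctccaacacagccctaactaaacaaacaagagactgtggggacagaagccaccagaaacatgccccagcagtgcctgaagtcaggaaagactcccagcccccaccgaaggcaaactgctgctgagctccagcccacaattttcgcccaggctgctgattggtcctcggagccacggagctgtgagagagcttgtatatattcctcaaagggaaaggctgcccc
Abcc9: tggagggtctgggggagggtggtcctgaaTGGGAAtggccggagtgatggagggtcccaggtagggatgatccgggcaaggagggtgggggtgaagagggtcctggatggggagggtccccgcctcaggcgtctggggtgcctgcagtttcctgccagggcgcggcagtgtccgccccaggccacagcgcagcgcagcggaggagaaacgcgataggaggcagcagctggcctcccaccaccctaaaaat
Kcnj8: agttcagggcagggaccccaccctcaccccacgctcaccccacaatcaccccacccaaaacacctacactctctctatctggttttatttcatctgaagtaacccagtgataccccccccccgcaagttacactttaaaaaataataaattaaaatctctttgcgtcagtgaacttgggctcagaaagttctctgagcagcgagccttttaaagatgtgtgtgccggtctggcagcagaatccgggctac
The core lay in the Abcc9 window, at bases -221 to -216 from the start site, and not in the Rgs5 or Kcnj8 window. GC content was 53.6% for Rgs5, 66.8% for Abcc9 and 49.2% for Kcnj8.

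RefSeq held a promoter for 8 of the 10 members, and both strands of each were searched. TGGGAA was found in 2 of the 8 (Abcc9 and Acta2) and in 21.6% of 32851 promoters of the same length. The CArG box, the element bound by serum response factor in smooth muscle genes, was searched only in its strict form CCWWWWWWGG (W is A or T). This form was found in 0 of the 8 and in 1.47% of all promoters. Forms with a G or C in the middle were not searched, so a CArG element in these windows, that of Acta2 included, can have been missed. The E-box CANNTG was found in 5 of the 8 and in 66.2% of all. TGGGAA holds no E-box and no CArG box, and the windows of the 3 motifs were not otherwise compared. A match is a description of letters in this window, not a binding site.

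Per length, Rgs5 stood far above the other members. Its mean over the 12 libraries was 98.6 TPM, followed by Acta2 with 14.1 TPM and Higd1b with 2.90 TPM, and in all 12 libraries Rgs5 was above Acta2 and Acta2 above Higd1b. Anpep (1.86 TPM) was below Higd1b in 10 of 12 libraries. From Anpep down, through Kcnj8 (1.44), Pdgfrb (1.27), Abcc9 (1.12), Cspg4 (1.07) and Des (0.932), each gene was above the next in only 5 to 8 of 12 libraries, so the order of these neighbours did not hold from library to library. Notch3 was lowest, at 0.229 TPM, and was below Des in 8 of 12.

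Rgs5 encodes a regulator of G protein signalling that speeds the shut-off of Gq and Gi signals and is among the strongest pericyte markers. In CPM (counts scaled to a common library total) it was at 393, 386 and 341 in WT males 1 to 3 and at 292 and 492 in WT females 1 and 3. The library labelled WT female 2 had 252 CPM, the lowest of those labelled WT. In Q84 male 1 and Q84 females 1 to 4 it was at 149, 153, 152, 146 and 134 CPM. The library labelled Q84 female 5 had 439.7 CPM. The 5 Q84 libraries lay below every library labelled WT and close together, while Q84 female 5 lay inside the WT range.

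Under the labels as given, Rgs5 averaged 359 ± 84.8 CPM in the libraries labelled WT and 196 ± 120 CPM in those labelled Q84 (SD, n = 6 each). The log2 fold change was -0.91 (SE 0.35), which missed the threshold (edgeR, adjusted p = 0.27). It passed in the same fit without the library labelled Q84 female 5 alone (-1.26, edgeR, adjusted p = 0.000941), and did not pass without the library labelled WT female 2 alone (-1.07, adjusted p = 0.217).

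Without both libraries, Rgs5 fell from 381 ± 74.4 to 147 ± 7.72 CPM (SD, n = 5 each). The log2 fold change was -1.38 (SE 0.13, 95% interval -1.67 to -1.10; edgeR, adjusted p = 7.99e-05), and by p Rgs5 ranked 54 among 18721 genes. The spread in WT was wide, with a coefficient of variation of 19.5% against 5.25% in Q84. Leaving out each of the 10 libraries in turn gave -1.56 to -1.15, and all 10 fits passed. Nearly all of the signal came from 1 transcript, ENSMUST00000027997.9 of 4096 bases, which held 99.7% of the gene's TPM. It was at 137 ± 26.2 TPM in the 5 WT and 51.0 ± 4.50 TPM in the 5 Q84 libraries (SD), at 94.8 TPM in WT female 2 and at 146 TPM in Q84 female 5.

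**Figure D1:**
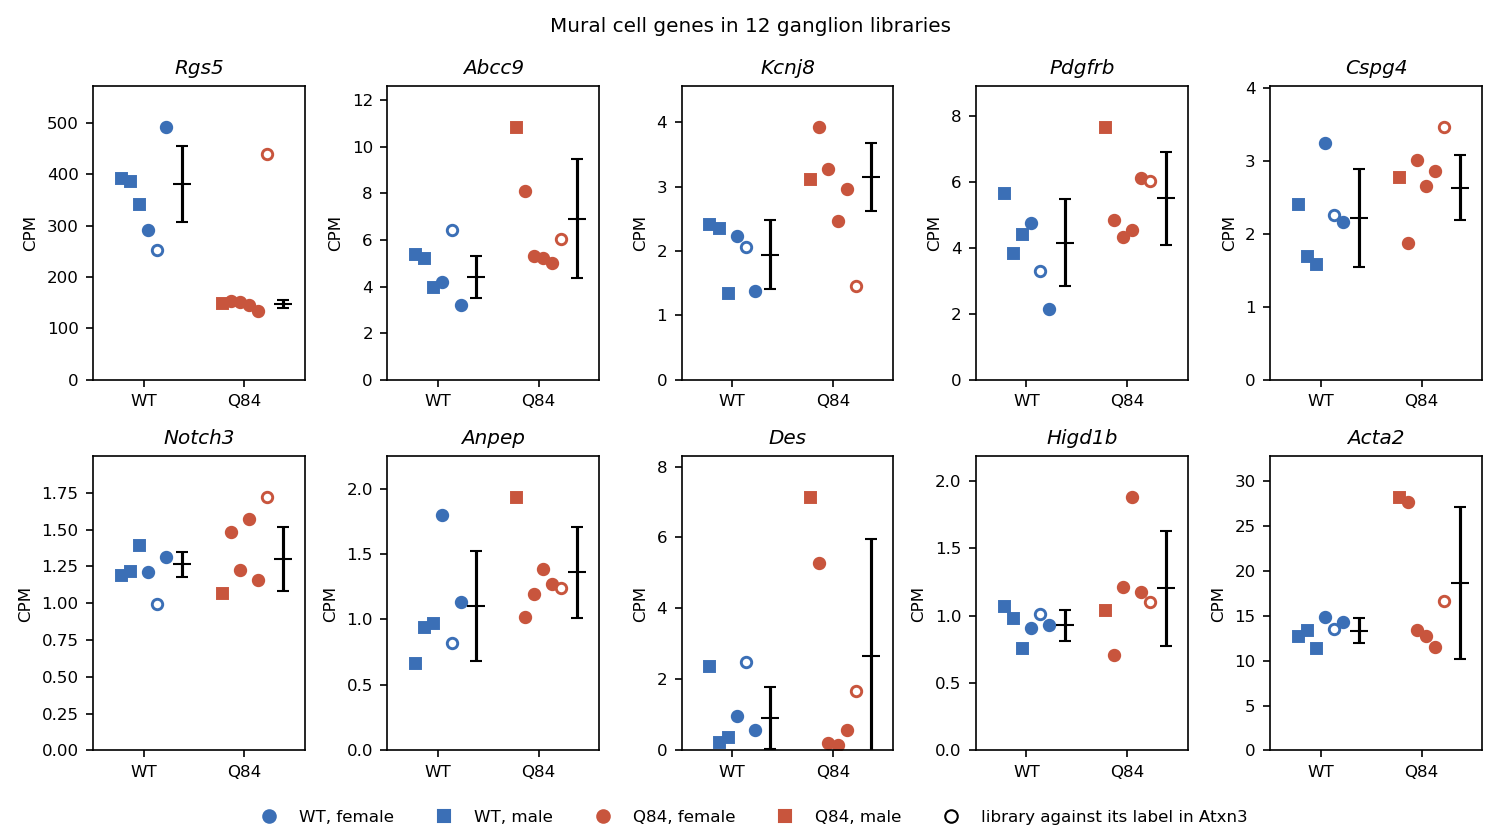
CPM of each of the 10 mural genes in every library, by labelled genotype (squares male, circles female, open symbols the 2 libraries against their label in Atxn3; bars are mean ± SD of the 5 WT and 5 Q84 other libraries, cut at 0 for Des). Rgs5 of the 5 Q84 libraries sits at 134 to 153 CPM, below all WT libraries, while Des and Acta2 are high in 2 Q84 libraries only.

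Higd1b, a small mitochondrial membrane protein gene whose RNA marks pericytes, did not follow Rgs5. It was at 0.930 ± 0.115 CPM in the 5 WT and 1.2 ± 0.428 CPM in the 5 Q84 libraries (SD), on 50 to 129 estimated counts per library. The log2 fold change was 0.33 (edgeR, adjusted p = 0.568), and the groups overlapped.

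Abcc9 and Kcnj8 encode the SUR2 and Kir6.1 subunits of the ATP-sensitive potassium channel of vascular cells, which lets mural cells relax when ATP falls. Abcc9 was at 5.41, 5.25 and 3.97 CPM in WT males 1 to 3 and at 4.21 and 3.22 CPM in WT females 1 and 3. It was at 10.9 CPM in Q84 male 1 and at 8.11, 5.31, 5.23 and 5.01 CPM in Q84 females 1 to 4. WT female 2 (6.41 CPM) and Q84 female 5 (6.04 CPM) both lay above the 5 WT libraries. The groups touched, since the 3 lowest Q84 libraries were level with WT males 1 and 2.

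Over the 10 libraries Abcc9 rose 1.80-fold, from 4.41 ± 0.914 to 6.90 ± 2.55 CPM (SD, n = 5 each; log2 fold change 0.85, SE 0.19, edgeR, adjusted p = 0.0182). This call did not hold in every fit. It was lost without Q84 male 1 (0.67, edgeR, adjusted p = 0.186) and without WT female 3 (0.82, adjusted p = 0.0729), and it was not made in the 12 libraries as labelled (0.60, SE 0.21, edgeR, adjusted p = 0.206). The counts of Abcc9 were divided over several similar transcripts, with 72.3% of its TPM on ENSMUST00000100827.5, and how reads were split among them is uncertain.

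Kcnj8 was at 2.42, 2.36 and 1.34 CPM in WT males 1 to 3, and at 2.23 and 1.38 CPM in WT females 1 and 3. It was at 3.12 CPM in Q84 male 1 and at 3.93, 3.27, 2.46 and 2.96 CPM in Q84 females 1 to 4. All 5 Q84 libraries lay above the 5 WT libraries, the nearest by a small margin. WT female 2 (2.06 CPM) and Q84 female 5 (1.47 CPM) both lay within the WT range. The log2 fold change was 0.73 (SE 0.23) over the 10 libraries and missed the threshold in edgeR (adjusted p = 0.0917), while DESeq2 passed it (0.73, adjusted p = 0.0293). The ratio of Kcnj8 to Abcc9 TPM ran from 0.737 to 1.87 over the 12 libraries, so the 2 subunits did not keep 1 ratio.

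Of the receptors and surface proteins, none passed. Pdgfrb, the receptor for PDGF-B, was at 5.66, 3.84 and 4.41 CPM in WT males 1 to 3 and at 4.74 and 2.14 CPM in WT females 1 and 3. It was at 7.67 CPM in Q84 male 1 and at 4.84, 4.32, 4.53 and 6.13 CPM in Q84 females 1 to 4. The groups overlapped, with WT female 3 lowest and Q84 male 1 highest; WT female 2 had 3.29 and Q84 female 5 had 6.02 CPM. Its log2 fold change was 0.60 over 10 libraries (SE 0.22, edgeR, adjusted p = 0.151) and 0.64 over 12 (SE 0.19, edgeR, adjusted p = 0.159), where DESeq2 passed it (adjusted p = 0.0382). Without WT female 1 it passed in the 10-library fit (0.95, edgeR, adjusted p = 0.0257).

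Cspg4, which encodes the proteoglycan NG2, lay at 1.59 to 3.24 CPM in the 5 WT and 1.87 to 3.01 CPM in the 5 Q84 libraries (log2 fold change 0.17, edgeR, adjusted p = 0.74). Notch3 was at 1.26 ± 0.0859 and 1.30 ± 0.217 CPM (SD, n = 5 each), with a log2 fold change of -0.02 and a 95% interval of -0.41 to 0.38. Anpep, which encodes aminopeptidase N (CD13), lay at 0.666 to 1.80 CPM in WT and 1.02 to 1.94 CPM in Q84 (log2 fold change 0.27, edgeR, adjusted p = 0.65). The groups overlapped for all 3 of these genes.

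The contractile genes were set apart by 2 libraries. Acta2, smooth muscle actin, was at 12.7, 13.4 and 11.4 CPM in WT males 1 to 3 and at 14.9 and 14.4 CPM in WT females 1 and 3. It was at 28.3 CPM in Q84 male 1 and 27.7 CPM in Q84 female 1, but at 13.4, 12.7 and 11.5 CPM in Q84 females 2 to 4. WT female 2 had 13.5 and Q84 female 5 had 16.6 CPM. Only Q84 male 1, Q84 female 1 and Q84 female 5 lay above the WT range. The log2 fold change was 0.54 over 10 libraries (SE 0.27, edgeR, adjusted p = 0.31), and -0.22 without Q84 male 1 and Q84 female 1.

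Des encodes desmin, an intermediate filament of pericytes and of all muscle. It was at 2.39, 0.248 and 0.391 CPM in WT males 1 to 3 and at 0.961 and 0.581 CPM in WT females 1 and 3. It was at 7.14 CPM in Q84 male 1, 5.28 CPM in Q84 female 1, and 0.208, 0.146 and 0.587 CPM in Q84 females 2 to 4. The same 2 Q84 libraries were again highest, and the other 3 lay among or below the WT values; WT female 2 had 2.49 and Q84 female 5 had 1.67 CPM. The log2 fold change was 1.74 with an SE of 1.15 (edgeR, adjusted p = 0.467, 10 libraries), and -1.30 without Q84 male 1 and Q84 female 1.

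The 2 Q84 libraries with the most Des and Acta2 also held the most skeletal muscle marker RNA. The 10 markers summed to 997 CPM in Q84 male 1 and 594 CPM in Q84 female 1, against 4.15 to 37.1 CPM in Q84 females 2 to 4. In the 5 WT libraries the sum ran from 4.38 to 292 CPM, in WT female 2 it was 412 CPM and in Q84 female 5 it was 167 CPM. Acta2 was at 13.5 CPM in WT female 2 and 12.7 CPM in WT male 1, which held the most marker RNA of the libraries labelled WT. It was at 16.6 CPM in Q84 female 5 and at 14.4 CPM in WT female 3, where the markers summed to 18.6 CPM. All 10 muscle genes had counts in every library. The 5 adipocyte markers summed to 69.4 CPM in Q84 male 1 and 27.6 CPM in Q84 female 1, and to 3.11 to 10.95 CPM in the other 10 libraries, with at most 1 of the 5 genes at 0. The part of muscle or fat RNA in the Des, Acta2 and Abcc9 values was not tested. Without Q84 male 1 and Q84 female 1 the Abcc9 fold change was 0.48 (edgeR, adjusted p = 0.274), while Rgs5, which was as low in these 2 libraries as in the other 3, stayed past the threshold (-1.44, edgeR, adjusted p = 0.00397).

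**Figure D2:**
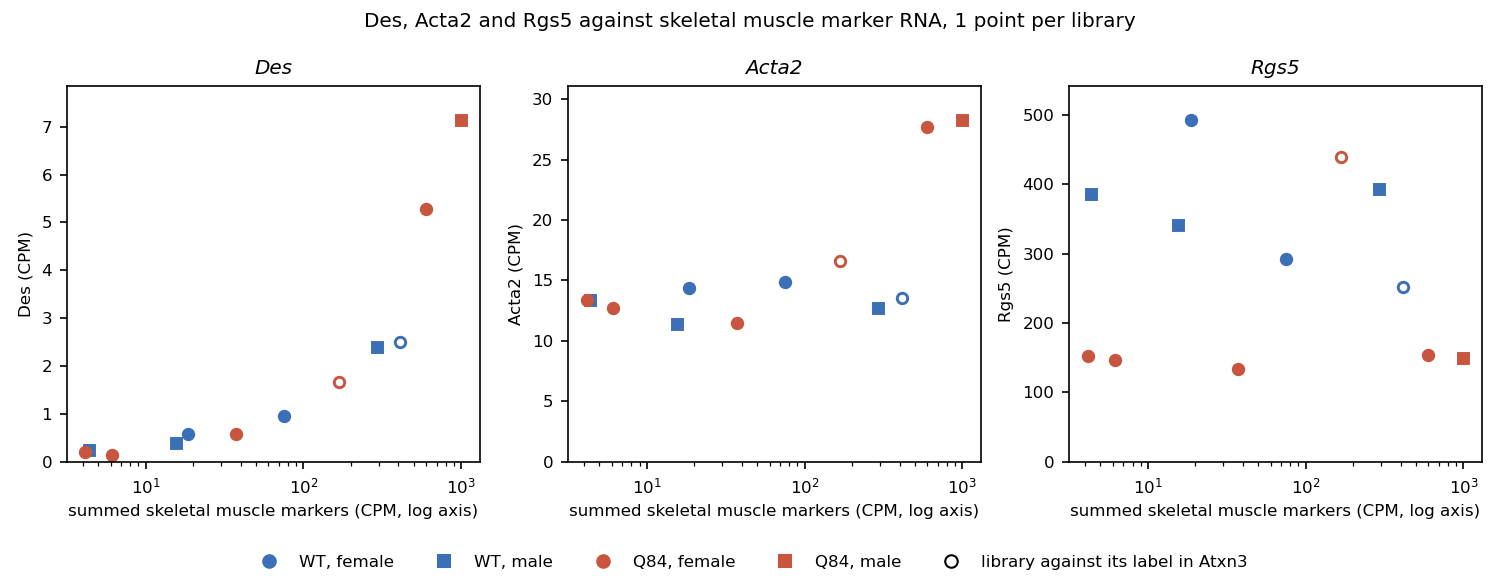
CPM of Des, Acta2 and Rgs5 (y axes) against the summed CPM of 10 skeletal muscle markers (x axis, log scale), 1 point per library with symbols by sex and colours by genotype. Des and Acta2 are highest in the 2 libraries with 997 and 594 CPM of muscle markers, Q84 male 1 and Q84 female 1. Rgs5 is at 149 and 153 CPM in these 2. No library labelled WT reaches their muscle level, the highest being WT female 2 at 412 CPM, so genotypes cannot be compared there.

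As a list, the 10 members did not all change in one direction. Over the 12 libraries as labelled 0 of 10 passed in edgeR, where 0.0053% of all 18875 genes did; 5 of 10 (Rgs5, Abcc9, Kcnj8, Pdgfrb and Acta2) had an unadjusted p under 0.05, as did 14.3% of all genes. DESeq2 called 1 (Pdgfrb) and limma-voom called 0. The ranges of the labelled groups overlapped for all 10 members, whereas they did not for 1.57% of all genes. Over the 10 libraries 2 of 10 passed, Rgs5 lower and Abcc9 higher, where 6.45% of all 18721 genes passed, 4.93% lower and 1.52% higher. An unadjusted p under 0.05 was reached by 4 of 10 members and by 20.2% of all genes. DESeq2 called 3 and limma-voom 2. The groups did not overlap for 2 members, Rgs5 (lower) and Kcnj8 (higher), against 8.67% of all genes, 5.96% lower.

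The signs of some members' fold changes turned without 2 libraries, Q84 male 1 and Q84 female 1, in the 10-library fit those of Notch3, Anpep, Des and Acta2. Notch3 (-0.02, SE 0.18) lay so near 0 that its sign also turned in fits that kept both, such as genotype alone. In the 10-library fit 8 of 10 members had a log2 fold change above 0, against 52.3% of all genes, and the members' median was 0.44 against 0.01 over all genes. In the 12-library fit it was 9 of 10 against 52.6%, with medians of 0.42 and 0.01. Without Q84 male 1 and Q84 female 1, the 2 libraries with most skeletal muscle marker RNA, 6 of 10 lay above 0 in the 10-library fit, with a median of 0.068, and 7 of 10 in the 12-library fit. The 9 members without Rgs5 summed to 26.2 to 34.2 CPM in the 5 WT libraries. Q84 females 2 to 4, at 33.2, 32.6 and 32.7 CPM, lay inside that range, and Q84 male 1 (63.9 CPM) and Q84 female 1 (54.9 CPM) lay above it. WT female 2 had 32.9 CPM and Q84 female 5 had 39.3 CPM.

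**Figure D3:**
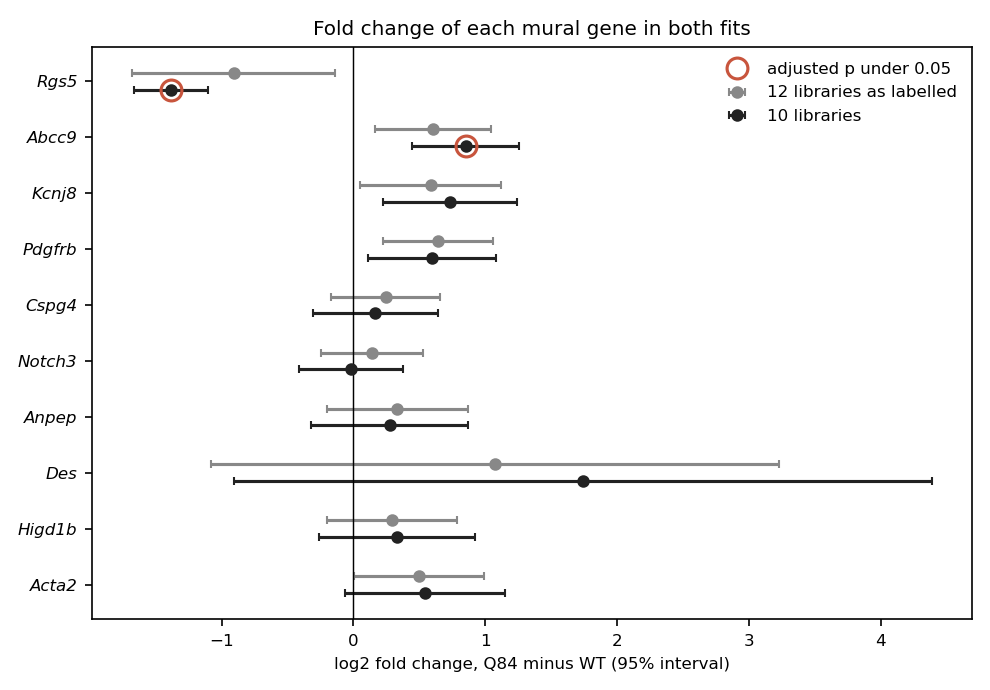
Log2 fold change of each mural gene, Q84 minus WT, with its 95% interval (x axis), in the 12 libraries as labelled (grey) and in the 10 libraries (black); red rings mark an adjusted p under 0.05. Rgs5 lies left of 0 in both fits and is ringed in the 10-library fit with Abcc9, which lies right of 0; no gene is ringed in the 12-library fit.

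The unequal change shows within single libraries, with no scaling between them. Rgs5 made up 80.7 to 89.7% of the summed TPM of the 10 members in the 6 libraries labelled WT, 55.1 to 71.6% in Q84 male 1 and Q84 females 1 to 4, and 85.8% in Q84 female 5. Put as a ratio, Rgs5 TPM was 4.32 to 8.69 times the sum of the other 9 members in the 5 WT libraries, and 4.19 times in WT female 2. It was 1.23 to 2.52 times that sum in the 5 Q84 libraries. The lowest ratios were in Q84 male 1 (1.23) and Q84 female 1 (1.39), the libraries with the most Acta2. The ranges did not overlap, and Q84 female 5, at 6.03, lay within the WT range.

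Across all 12 libraries Pearson's r of Rgs5 with 1 of the other 9 members passed, Kcnj8, and its sign was negative. Spearman's rho of the same pair did not pass. Because Rgs5 lay in separate clusters (134 to 153 and 252 to 492 CPM), no pooled value is given. Within the 6 WT libraries Pearson's r of Rgs5 with the other 9 ran from -0.606 (Abcc9) to 0.642 (Notch3), and 0 of 9 passed (exact permutation test, smallest adjusted p = 0.831). Spearman's rho ran from -0.486 to 0.429, each with an adjusted p of 1 in the exact permutation test. The 5 Q84 libraries of the low cluster were too few for a correlation.

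Among the other 9 members, 31 of 36 pairs had a positive r over the 12 libraries, with a median of 0.167. After adjustment over the 36 pairs 2 passed: Des with Acta2 (r = 0.806, rho = 0.65, adjusted permutation p = 0.0481 for r and 0.335 for rho) and Abcc9 with Des (r = 0.773, rho = 0.678, adjusted permutation p = 0.0481 and 0.335). Both rested on Q84 male 1 and Q84 female 1. Without them r was 0.342 and 0.392, and 0 of 36 pairs passed (highest r = 0.585).

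No member passed the test for sex. Between the 4 male and 8 female libraries 0 of 10 members passed in edgeR, where 0.0636% of all genes did, and 1 had an unadjusted p under 0.05, Pdgfrb (log2 fold change 0.49, male minus female). DESeq2 and limma-voom were not run for sex. Rgs5 had a log2 fold change of -0.08 (SE 0.37, edgeR, adjusted p = 1).

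The rest of the mural programme, from lists of other genes, was compared in the 10-library fit. Of the 133 genes of all 16 other lists 7 passed there, where 6.45% of all genes passed, 4.93% lower and 1.52% higher. Of 18 other pericyte genes 1 rose and 0 fell, with a median log2 fold change of 0.27. An unadjusted p under 0.05 was reached by 8 of the 18, against 20.2% of all genes, and DESeq2 called 5 and limma-voom 2. Among these 8 at an unadjusted p under 0.05, Ebf1 and Mcam had log2 fold changes below 0 and the others above 0. Neither Ebf1 (-0.35, edgeR, adjusted p = 0.0884) nor Mcam (-0.31, adjusted p = 0.172) passed. The gene that rose was Steap4, a metalloreductase (mean 19.6 ± 3.00 in WT and 27.8 ± 5.03 CPM in Q84, with the SD of 5 libraries; log2 fold change 0.56, edgeR, adjusted p = 0.0324). The call for Steap4 was lost in 7 of 10 fits that left out 1 library, with the adjusted p highest without Q84 male 1 (0.38, adjusted p = 0.3). Of 15 smooth muscle contractile genes 0 rose and 1 fell, with a median of 0.52 (5 at an unadjusted p under 0.05, DESeq2 1, limma-voom 1). That gene was Pln, which encodes phospholamban, a brake on the calcium pump of muscle cells: it fell from 9.22 ± 1.87 to 3.61 ± 0.915 CPM (SD, n = 5 each; log2 fold change -1.37, edgeR, adjusted p = 0.0026).

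Of 5 PDGF ligand and alpha receptor genes 1 rose, Pdgfra, a receptor known from fibroblasts and oligodendrocyte precursors, from 15.3 ± 0.385 to 22.7 ± 3.25 CPM (SD, n = 5 each; log2 fold change 0.61, edgeR, adjusted p = 0.00303). Without Q84 male 1 its adjusted p was 0.0587 (0.47). Of 12 Notch ligands, receptors and targets 0 passed, with 0 at an unadjusted p under 0.05 and 0 by DESeq2 or limma-voom, and the smallest p belonged to Notch1 (0.36, edgeR, adjusted p = 0.345). Of 11 angiopoietin and TGF-beta signalling genes 0 passed in edgeR (3 at an unadjusted p under 0.05, 2 by DESeq2, 0 by limma-voom), led by the TGF-beta receptor Tgfbr2 (0.40, edgeR, adjusted p = 0.0569). The 2 KATP subunits of the pancreatic type, Abcc8 and Kcnj11, had log2 fold changes below 0, unlike Abcc9 and Kcnj8. Abcc8 fell from 0.817 ± 0.217 to 0.315 ± 0.104 CPM (SD, n = 5 each; log2 fold change -1.18, edgeR, adjusted p = 0.034), a call lost in 7 of 10 fits that left out 1 library, with adjusted p up to 0.147. Kcnj11 did not pass (-0.48, edgeR, adjusted p = 0.346).

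Of 7 other small RGS genes tested, 3 fell, as Rgs5 did, 0 rose and 4 did not pass, where 4.93% of all genes fell and 1.52% rose. Their median log2 fold change was -0.68, and DESeq2 and limma-voom called 3 each. Rgs4, which acts on the same G proteins and is abundant in neurons, fell from 2371 ± 376 to 1245 ± 167 CPM (-0.997, edgeR, adjusted p = 0.000451). Rgs8 fell from 32.0 ± 8.57 to 9.68 ± 1.47 CPM (-1.67, edgeR, adjusted p = 0.000565). Rgs3 fell from 23.3 ± 1.01 to 14.7 ± 1.86 CPM (-0.68, edgeR, adjusted p = 0.0026; SD, n = 5 each throughout). All 3 passed in each of the 10 fits that left out 1 library. The other 4 did not share a direction. Rgs18 had a log2 fold change of 0.89 (1.04 ± 0.523 and 1.72 ± 0.479 CPM, unadjusted p = 0.0227, edgeR, adjusted p = 0.161) and Rgs1 one of -1.51 (edgeR, adjusted p = 0.333). Rgs2 was at 21.8 and 23.3 CPM, and Rgs16 at 1.35 CPM in both groups.

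**Figure D4:**
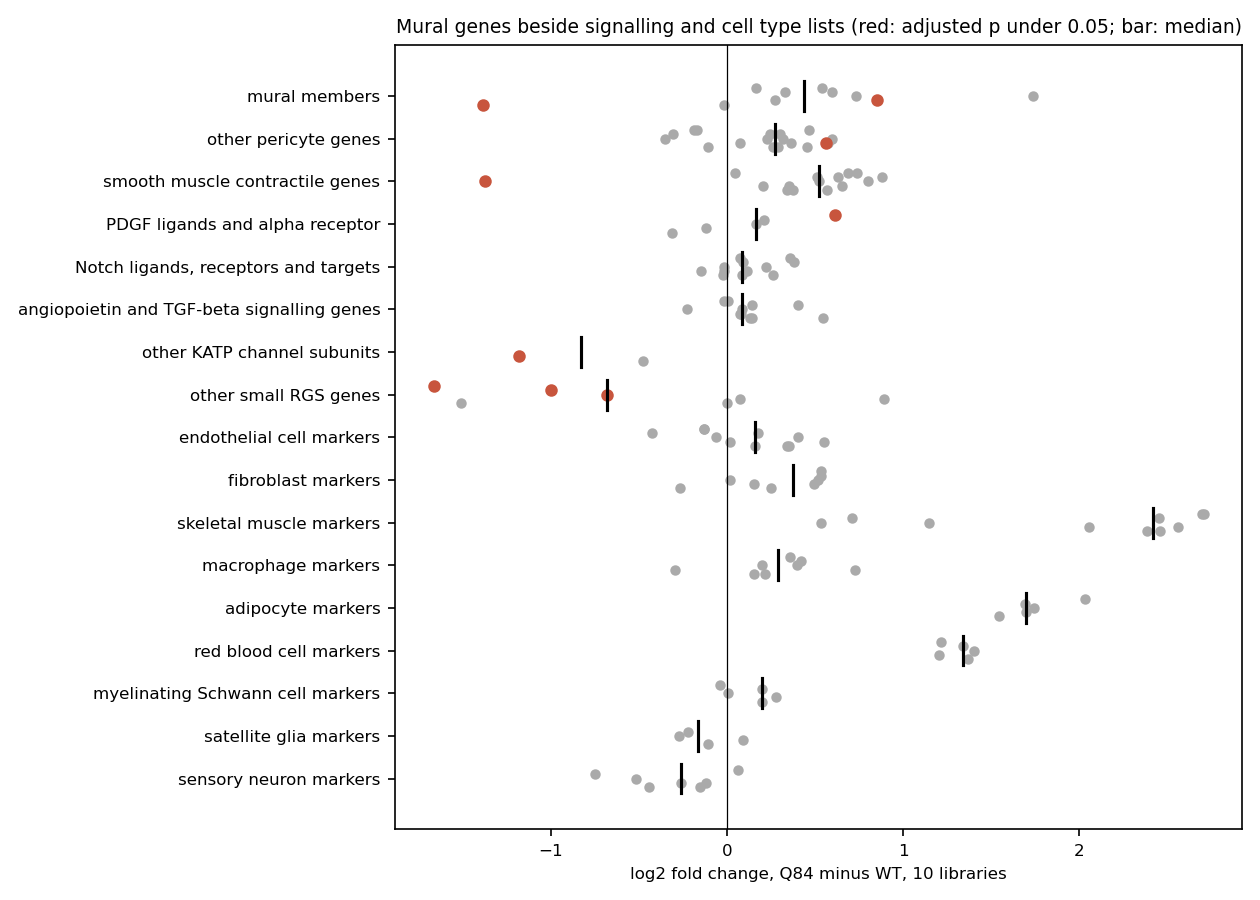
Log2 fold change, Q84 minus WT over 10 libraries (x axis), of each tested gene of the mural list and 16 other lists (y axis), 1 point per gene, red where the adjusted p was under 0.05, with a bar at each list's median. The mural list has 1 red point on each side of 0, and the small RGS list has 3 red points, all below 0.

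Over the 12 libraries as labelled, 0 of the 133 genes of these 16 other lists passed in edgeR, where 0.0053% of all genes did. An unadjusted p under 0.05 was reached by 39 of the 133 and by 14.3% of all genes. DESeq2 called 6 of the 133 and limma-voom 0.

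Rgs4 is the next gene to Rgs5 on chromosome 1. Of the 4 genes on either side of Rgs5 in RefSeq order 7 could be tested, and Rgs4 was the 1 that passed. Nuf2, a kinetochore gene, on the other side of Rgs5 had a log2 fold change of 0.06 (SE 0.17, edgeR, adjusted p = 0.897). Beyond Rgs4, Ccdc190 was at -0.02 (SE 0.31) and the sterol enzyme Hsd17b7 at 0.17 (SE 0.080). The collagen receptor gene Ddr2, the fourth on that side, had 0.31 (SE 0.10, edgeR, adjusted p = 0.097). Rgs4 in the doubted libraries was at 1814 CPM in WT female 2 and 2470 CPM in Q84 female 5, and for Rgs5, too, Q84 female 5 lay above WT female 2.

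**Figure D5:**
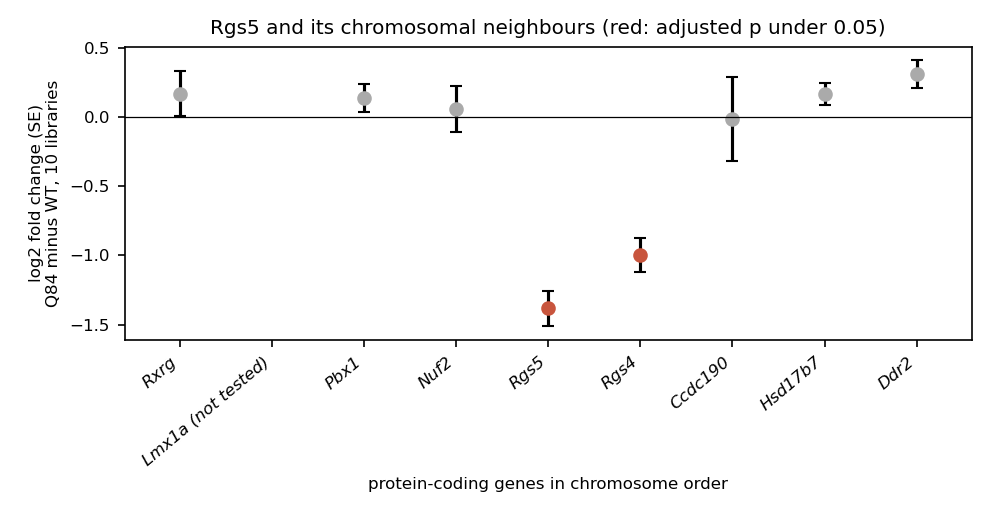
Log2 fold change with its SE, Q84 minus WT over 10 libraries (y axis), of Rgs5 and the tested protein-coding genes around it in chromosome order (x axis); red marks an adjusted p under 0.05. Rgs5 at -1.38 and Rgs4 at -0.997 are red, and the other tested neighbours lie between -0.02 and 0.31, the highest being Ddr2.

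The genes whose log2 CPM most resembled Rgs5 over the 12 libraries, among 13578 genes with a mean of 1 CPM or more, were Cacnb4 (r = 0.993), Crhbp (0.992), Ano3 (0.986), Dock11 (0.983), Ldb2 (0.983) and Cadm1 (0.983). These values are descriptions, and the 12 points share the 2 clusters of libraries. For the mean z score of all 10 members the most alike were Col1a2 (0.947), Zic2 (0.942), Pkd2 (0.907), Col4a2 (0.905), Zic1 (0.902) and Col1a1 (0.898). No gene was on both lists.

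Markers of other cell types in the ganglion were compared in the same 10-library fit, in which 0 genes of each list below passed in edgeR. Over all genes 6.45% passed, and 20.2% had an unadjusted p under 0.05. The 11 endothelial markers summed to 133 to 182 CPM in WT and 151 to 186 CPM in Q84, with a median log2 fold change of 0.16 (4 at an unadjusted p under 0.05, DESeq2 2, limma-voom 0; smallest p for Egfl7, -0.43, edgeR, adjusted p = 0.0731). The 8 fibroblast markers had a median of 0.37 and summed to 829.5 to 1224 and 1070 to 1267 CPM (3 at an unadjusted p under 0.05, DESeq2 1, limma-voom 0; Col1a2 0.53, edgeR, adjusted p = 0.0802). The 7 sensory neuron markers had a median of -0.26 and summed to 2519 to 3965 and 2546 to 3031 CPM (4 at an unadjusted p under 0.05, DESeq2 1, limma-voom 0; Prph -0.26, edgeR, adjusted p = 0.13). For these 3 lists the summed ranges of WT and Q84 overlapped, and none of their genes was at 0 in any library.

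The other lists varied more between libraries. The 10 skeletal muscle markers had a median of 2.42 (0 at an unadjusted p under 0.05, 0 by DESeq2 and limma-voom; Actn3 2.7, edgeR, adjusted p = 0.402). The 5 adipocyte markers had a median of 1.70 (2 at an unadjusted p under 0.05, DESeq2 1, limma-voom 1; Plin1 1.70, edgeR, adjusted p = 0.0566). The 5 red blood cell markers had a median of 1.34 and summed to 173 to 1033 CPM in WT and 462 to 1826 CPM in Q84 (5 at an unadjusted p under 0.05, DESeq2 1, limma-voom 0; Hba-a1 1.37, edgeR, adjusted p = 0.111). The WT and Q84 ranges of the blood markers overlapped, and their part in the mural values was not tested.

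Macrophage and glial markers lay closer to 0. The 8 macrophage markers had a median of 0.29 (2 at an unadjusted p under 0.05, 0 by DESeq2 and limma-voom; Mrc1 0.42, edgeR, adjusted p = 0.141). The 5 myelinating Schwann cell markers had a median of 0.20 (0 at an unadjusted p under 0.05, 0 by DESeq2 and limma-voom; Mbp 0.28, edgeR, adjusted p = 0.635). The 4 satellite glia markers had a median of -0.16 (1 at an unadjusted p under 0.05, 0 by DESeq2 and limma-voom; Apoe -0.22, edgeR, adjusted p = 0.222).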

How the data were processed

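Poly(A) RNA of dorsal root ganglia was measured in 12 libraries. STAR 2.7.10b, kallisto 0.46.2 and GRCm39 are named per the submitters' processing notes, and which transcript release was used was not given in the sources used here. In each deposited table stand estimated counts, an effective length and TPM per transcript, per the file headers. The authors' estimated counts are not scaled between libraries, and reads shared by similar transcripts are divided among them. Deposited TPM values are scaled by transcript length and library total.

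Transcripts were joined to genes by Ensembl identifier without version (GENCODE M21, GRCm38, 98.3% matched), and the unmatched 0.751 to 0.804% of counts per library were left out. Counts were summed per gene and rounded. edgeR 4.0.16 (filterByExpr on genotype and sex, TMM, robust quasi-likelihood test, sex and genotype in the model) was run over all genes; p-values were adjusted after Benjamini and Hochberg, and the threshold was 0.05. CPM values use TMM factors of the 12 libraries. Correlations used log2(CPM + 0.5) and two-sided permutation tests (100000 resamples, exact for 6 libraries). The steps were tested on simulated data.

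The members, the 17 gene lists, the tests and the choice to show 2 libraries apart were fixed with earlier results of these data known. Named from each list were the genes that passed in either fit (at most 4 of smallest p), otherwise the gene of smallest p, and the 6 genes most like Rgs5 and most like the mean z score of the members. The fits without Q84 male 1 and Q84 female 1, the 36 pairs of members, the neighbours, and the single transcripts were added after the data were seen. Alternatives were DESeq2 1.42.0, limma-voom (limma 3.58.1), other scaling and filters, length-scaled TPM, other models and each library left out. No 2 libraries of a group agreed within sampling noise (chi-square per degree of freedom of 28.9 or more).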

Additional observations from a re-analysis of the deposited data

Results flagged for a closer look

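Rgs5 in the library labelled Q84 female 5 (439.7 CPM) stood far from the other libraries with that genotype label, which lay at 134 to 153 CPM. Its gap to the nearest was 0.937 of the range, above Dixon's 95% critical value both among the 6 Q84 libraries (0.625) and among the 5 Q84 female libraries (0.71). This is 1 library counted in 2 groups, of 30 groups of member values compared, and chance sets apart about 1 in 20 such groups. The same library held 0.0612 TPM of the 1000-base Atxn3 transcript, against 71.4 ± 6.14 TPM (SD, n = 5) in the rest labelled Q84.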

How the results depend on the processing

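Rgs5 was lower in Q84 in all 21 alternatives of the 10-library fit, each past the threshold (edgeR, DESeq2 or limma-voom, adjusted p from 2.66e-19 to 0.00525). Of all the values recomputed for single genes, 1175 kept their direction and side of the threshold, 44 moved past it, 27 fell short of it and 34 turned sign. Depth limited the low members: Des had 10 to 535 and Notch3 74.0 to 128 estimated counts per library.

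In the 12 libraries as labelled, the number of genes called (1) became 620 with DESeq2, 15 with no filter on low counts, 193 with genotype alone, 0 with female libraries only, 0 without Q84 male 1 and Q84 female 1, and 0 to 1082 with each library left out (1082 without Q84 female 5, 51 without WT female 2, 42 without WT male 1, 3 without WT female 1). Of the members, DESeq2 called 1, and 0 to 1 were called with each library left out. In the 10 libraries the number of genes called (1208) became 1934 with DESeq2, 529 without Q84 male 1 and Q84 female 1, and 681 (without Q84 male 1) to 1980 (without WT male 1) with each library left out, 739 without WT female 3. Members called (2) became 1 with genotype alone, with female libraries only and without Q84 male 1 and Q84 female 1, and 1 to 3 with each library left out. Abcc9 was lost with genotype alone (0.65, edgeR, adjusted p = 0.117) and in the female libraries (0.69, adjusted p = 0.129). The number of members whose Pearson correlation with Rgs5 passed was 1 over 12 libraries (Kcnj8), and 0 without the 2 libraries against their label, within the 6 WT and within the 6 Q84 libraries. The cause of these changes was not tested, and the fits that left libraries out also held fewer libraries.

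With the replicate number as a block, 639 genes and 1 member (Rgs5, -1.20, edgeR, adjusted p = 0.00975) were called in the 12 libraries and 701 genes in the 10. In the 10, Abcc8 lost its call (-1.29, edgeR, adjusted p = 0.065). Replicate numbers 4 and 5 each belonged to 1 library only, Q84 female 4 and Q84 female 5. Such a block takes up its library whole, so these libraries added nothing to the genotype difference in the block fits. The calls in the 12 libraries were thus made without weight from Q84 female 5. The numbers are not stated to pair libraries: deviations of same-numbered WT and Q84 females correlated at -0.0369, -0.189 and 0.167.

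Signs turned for genes that passed in neither fit, and for Abcc8. In the 12-library fit this was Anpep (-0.032), Actn3 (-0.13) and Mbp (-0.049) in female libraries only, Des (-0.023) and Mbp (-0.085) with the replicate block, Abcc8 (0.34) with length-scaled TPM, and without Q84 male 1 and Q84 female 1 Des (-1.04), Acta2 (-0.069), Actn3 (-1.38) and Mbp (-0.10). In the 10-library fit it was Notch3 with length-scaled TPM (0.073), genotype alone (0.042), female libraries only (0.12) and the replicate block (0.064), Cspg4 (-0.039) and Anpep (-0.25) in female libraries only, and without Q84 male 1 and Q84 female 1 Notch3 (0.064), Anpep (-0.19), Des (-1.30), Acta2 (-0.22) and Actn3 (-0.84). With each library left out, log2 fold changes ran from -0.033 to 0.63 (Anpep), -0.13 to 2.73 (Actn3) and -0.050 to 0.29 (Mbp) in the 12-library fit, and from -0.27 to 0.61 (Anpep), -0.057 to 0.39 (Cspg4) and -0.11 to 0.11 (Notch3) in the 10-library fit. For male against female in WT libraries only, Rgs5 (0.11), Notch3 (0.11), Des (-0.42) and Acta2 (-0.19) turned sign, and 0 of 10 members passed.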

Other observations

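Abcc9 and Kcnj8 lie next to each other on chromosome 6, and the 4 genes before Kcnj8 and the 3 after Abcc9 in RefSeq order were read in the same 10-library fit. St8sia1, which encodes the enzyme that makes the ganglioside GD3 and is the third gene beyond Abcc9, fell from 83.5 ± 15.9 to 44.1 ± 3.59 CPM (SD, n = 5 each; log2 fold change -0.83, SE 0.12, edgeR, adjusted p = 0.00115). It was singled out after its value was seen. Between it and Abcc9, Cmas, a sialic acid enzyme, had -0.04 (edgeR, adjusted p = 0.837) and Sult6b2 0.07 (adjusted p = 0.938). On the other side of Kcnj8, Ldhb had -0.15 (edgeR, adjusted p = 0.57).

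St8sia1 stood at 51.8 CPM in WT female 2 and 57.7 CPM in Q84 female 5. Over the 12 libraries as labelled it did not pass (-0.64, edgeR, adjusted p = 0.104).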
